A study of Mus musculus with 26 samples.

Results

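Crkl, Entpd7, Eml2 and Gsk3a are 4 genes of unlike function whose RNA was lower in monocytes from ACKR2-/- mice than in monocytes from WT mice. They are 4 of the 61461 gene identifiers in the 3 count tables, and they were chosen by their genotype difference in monocytes, outside the genes of lymphoid cells. The monocyte values of the 4 genes, also where set beside other cell types, are therefore a description. The 4 genes are tested only between groups of samples that the choice did not use. In monocytes 47 genes were called lower in ACKR2-/- samples, and ranked by fold change Eml2 was number 7 of them, Entpd7 number 10, Crkl number 15 and Gsk3a number 24.

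Crkl is an adaptor protein with SH2 and SH3 domains that carries signals from phosphorylated receptors and scaffolds to exchange factors for small GTPases, and so acts in adhesion and migration. Entpd7 is a nucleoside triphosphate diphosphohydrolase of intracellular membranes. Eml2 belongs to a family of proteins that bind microtubules, and Gsk3a is a serine/threonine kinase that acts in insulin and Wnt signalling beside its close relative Gsk3b. ACKR2 is an atypical chemokine receptor that takes up inflammatory CC chemokines and does not signal through G proteins.

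RNA was measured in FACS sorted cells of naive female mice. WT mice were C57BL/6J animals bought from a supplier, whereas ACKR2-/- mice, in which the receptor is absent from all cells, were bred at the University of Glasgow. Genotype and breeding colony cannot be told apart. Mice were 8 to 10 weeks old unless stated otherwise in the methods. The 26 samples held 4 WT and 4 ACKR2-/- samples of bone marrow monocytes, 4 and 4 of small peritoneal macrophages (SPMs), and 5 and 5 of MHCII negative lung macrophages. Each monocyte and SPM sample pooled sorted cells of 5 mice, whereas no source used here says how many mice went into a lung sample. By the methods, the monocyte gate took CD11b+ Ly6C+ cells negative for Ly6G, SiglecF and F4/80, the SPM gate took MHCII positive cells with intermediate F4/80, and the lung gate took CD11b+ F4/80+ cells without SiglecF, Ly6C or MHCII. No source says whether replicates were sorted on separate days, so p-values measure the spread between these samples only.

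Monocyte samples held 15450670 to 19218213 reads on genes, SPM samples 12781144 to 35400034 and lung samples 19950019 to 29770252. Ackr2 itself had 2 reads in all WT monocytes and 0 in ACKR2-/- monocytes, so it could not check the monocyte labels. In SPMs it had 5 to 9 reads per WT sample and 0 in every ACKR2-/- sample. In lung macrophages it had 469, 436, 150 and 372 reads in the libraries labelled WT replicates 1 to 4 and 0 in the library labelled WT replicate 5, against 7 to 50 in ACKR2-/- samples, so this library went against its label. The library labelled WT replicate 3 also stood apart in lung, with H2-Ab1, an MHC class II gene, at 21242 CPM against 253.2 to 1708 CPM in the other 9. CPM here are read counts scaled to the counts on tested genes of each library, with TMM factors. Monocyte markers summed to 55910 to 68085 CPM in WT and 28228 to 71934 CPM in ACKR2-/- monocytes. Macrophage markers summed to 7676 CPM or more in every SPM sample. In lung they summed to 3508 to 10943 CPM in WT and 2310 to 5087 CPM in ACKR2-/- samples. Of 13 marker lists, 4 held a called gene in monocytes. T cell markers rose for 9 of 10 genes, and their summed level was 3.784 to 5.37 CPM in WT and 68.14 to 126.3 CPM in ACKR2-/- samples. Of 2 tested NK cell markers Klre1 rose, and of 4 tested dendritic cell markers Siglech rose. Of 4 tested large peritoneal macrophage markers Alox15 fell. NK cell markers summed to 619.7 to 1175 CPM in WT and 374.8 to 1511 CPM in ACKR2-/- monocytes. Dendritic cell markers summed to 11.01 to 22.53 and 28.35 to 94.66 CPM, and large peritoneal macrophage markers to 83.1 to 94.89 and 68.79 to 90.5 CPM, in the same order. Neutrophil markers summed to 14696 to 41371 CPM in WT and 5002 to 22907 CPM in ACKR2-/- monocytes, with none of the 5 called. Alveolar macrophage markers, with 0 of 3 tested genes called, summed to 7663 to 9304 CPM in WT and 5052 to 6711 CPM in ACKR2-/- monocytes, sums that did not overlap. The part of these other cell types in the values of the 4 genes was not tested. No marker list held a called gene in SPMs or lung macrophages, though some sums varied. Epithelial markers summed to 370.4 to 15358 CPM in WT and 232.4 to 16741 CPM in ACKR2-/- lung samples. Large peritoneal macrophage markers summed to 218.4 to 941.8 CPM in WT and 839.9 to 1596 CPM in ACKR2-/- SPMs. In lung NK cell markers summed to 182.5 to 490.2 CPM in WT and 427.5 to 2675 CPM in ACKR2-/- samples. B cell markers went the other way there, at 269.8 to 1949 CPM in WT and 125.2 to 579.7 CPM in ACKR2-/- samples. In such bulk samples, fewer cells of a type and less RNA per cell cannot be told apart.

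The promoters are shown because the 4 genes were lower in the same samples, and a reader may want to see what their start sites share. They are windows of 250 bases before and 50 bases after the annotated start, from RefSeq on GRCm38.p6, read on the strand of the gene. All 4 genes matched, with 5 windows, since Eml2 has 2 annotated starts. Capitals mark matches, on either strand, to NF-Y (CCAAT, or ATTGG on the other strand), SP1 (GGGCGG or CCGCCC) and ETS (CCGGAAG). The windows were Crkl at chr16:17451735-17452034 on the plus strand, Entpd7 at chr19:43689439-43689738 on the plus strand, Eml2 at chr7:19176171-19176470 and chr7:19180920-19181219 on the plus strand, and Gsk3a at chr7:25237802-25238101 on the minus strand.
Crkl: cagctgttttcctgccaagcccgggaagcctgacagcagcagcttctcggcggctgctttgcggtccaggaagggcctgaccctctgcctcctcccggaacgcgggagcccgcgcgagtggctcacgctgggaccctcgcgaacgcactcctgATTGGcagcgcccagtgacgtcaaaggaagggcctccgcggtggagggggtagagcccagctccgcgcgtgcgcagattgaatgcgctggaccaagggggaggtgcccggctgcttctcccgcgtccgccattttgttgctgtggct
Entpd7: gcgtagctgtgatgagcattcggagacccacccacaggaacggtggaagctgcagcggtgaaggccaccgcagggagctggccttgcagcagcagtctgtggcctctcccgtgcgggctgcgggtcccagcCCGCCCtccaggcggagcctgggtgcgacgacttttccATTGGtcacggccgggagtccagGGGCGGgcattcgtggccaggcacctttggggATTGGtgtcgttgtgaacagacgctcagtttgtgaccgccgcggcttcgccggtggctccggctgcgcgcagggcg
Eml2, first start: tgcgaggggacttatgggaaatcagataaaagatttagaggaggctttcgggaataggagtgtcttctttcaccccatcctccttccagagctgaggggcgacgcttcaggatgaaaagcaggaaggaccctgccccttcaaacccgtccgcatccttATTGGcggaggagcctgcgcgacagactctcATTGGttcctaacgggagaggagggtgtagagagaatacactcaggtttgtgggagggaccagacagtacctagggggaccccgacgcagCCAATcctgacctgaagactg
Eml2, second start: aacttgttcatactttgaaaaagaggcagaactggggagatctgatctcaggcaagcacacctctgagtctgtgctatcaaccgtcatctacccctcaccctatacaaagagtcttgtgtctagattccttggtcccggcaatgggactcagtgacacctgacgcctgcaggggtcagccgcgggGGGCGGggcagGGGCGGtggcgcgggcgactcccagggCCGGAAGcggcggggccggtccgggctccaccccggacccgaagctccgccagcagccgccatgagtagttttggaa
Gsk3a: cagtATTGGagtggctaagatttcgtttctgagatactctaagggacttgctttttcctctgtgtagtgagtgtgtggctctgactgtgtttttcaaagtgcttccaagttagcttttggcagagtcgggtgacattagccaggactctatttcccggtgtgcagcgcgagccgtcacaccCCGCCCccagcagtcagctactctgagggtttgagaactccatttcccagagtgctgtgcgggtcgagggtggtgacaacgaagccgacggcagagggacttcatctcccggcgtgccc

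Each of the 4 genes had at least 1 window with an NF-Y match. Crkl had 1 match, Entpd7 had 2, the first window of Eml2 had 3 and its second none, and Gsk3a had 1. Of all 32851 promoter windows, 37.4% held this motif. SP1 matches stood in the windows of Entpd7 (2), Gsk3a (1) and the second start of Eml2 (2), and 35.7% of all windows held one. The ETS motif was found only in the second window of Eml2 among these 5, against 8.86% of all windows. An E-box (CACGTG), found in 7.15% of all windows, and the STAT6 motif (TTC and GAA with any 4 bases between), found in 6.95%, were without a match in the 5 windows. GC content was 67.3% for Crkl and 68% for Entpd7, above 86.8% and 88% of all windows. It was 55% and 61.7% for the windows of Eml2 and 54.3% for Gsk3a, with a median of 52.7% over all windows. A match is a description of letters and not of binding.

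Crkl (ENSMUSG00000006134) lies at chr16:17451987-17487434 on the plus strand of GRCm38. In the monocyte table its model ends 1179 bases earlier, so that its exons cover 3863 bases there and 5042 in the SPM table. This does not touch comparisons of genotype within a table, but it does touch levels set across tables. In monocytes Crkl was at 25.2, 30.0, 27.8 and 23.4 CPM in the 4 WT samples. It was at 12.9, 12.9, 14.8 and 10.6 CPM in the 4 ACKR2-/- samples. The groups did not overlap, with a gap of 8.60 CPM between the highest ACKR2-/- and the lowest WT sample. The means were 26.6 ± 2.87 and 12.8 ± 1.72 CPM (SD, n = 4 each), a log2 fold change of -1.05 with a standard error of 0.14 and a 95% confidence interval from -1.36 to -0.75. The same held for the other 3 genes below, and for 5.25% of the 13246 genes tested in monocytes all ACKR2-/- values lay under all WT values.

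Entpd7 (ENSMUSG00000025192, chr19:43689672-43733697, plus strand, 8963 bases of exon) was at 15.04, 16.23, 12.02 and 13.59 CPM in WT monocytes. It was at 5.59, 6.89, 7.52 and 5.95 CPM in ACKR2-/- monocytes, all lower than the lowest WT sample. The means were 14.2 ± 1.82 and 6.49 ± 0.880 CPM, with a log2 fold change of -1.13 ± 0.17 (SE) and an interval from -1.49 to -0.77. The 3' end of Entpd7 overlaps Cox15, a gene of haem A synthesis on the other strand. The methods do not say whether the library kit marks strand, so reads in the overlap may belong to either gene. Cox15 had 4104 reads over all monocyte samples against 951 and 480 reads of Entpd7 in the WT and ACKR2-/- groups. It did not pass the test in monocytes (log2 fold change -0.41, adjusted p = 0.179 in edgeR's quasi-likelihood test).

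Eml2 (ENSMUSG00000040811, chr7:19176421-19206482, plus strand, 3529 bases of exon) was at 10.6, 11.8, 13.4 and 16.3 CPM in WT monocytes. It was at 5.54, 6.945, 4.946 and 4.196 CPM in ACKR2-/- monocytes. The groups stood apart by 3.67 CPM, and the fold change was the largest of the 4 genes, with means of 13.04 ± 2.47 and 5.41 ± 1.16 CPM, a log2 fold change of -1.27 ± 0.20 (SE) and an interval from -1.71 to -0.83.

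Gsk3a (ENSMUSG00000057177, chr7:25228258-25237851, minus strand, 2900 bases of exon) was at 20.8, 25.0, 21.7 and 17.4 CPM in WT monocytes. It was at 10.97, 11.16, 14.58 and 10.73 CPM in ACKR2-/- monocytes. The groups stood apart by 2.82 CPM, and the fold change was the smallest of the 4 genes. The means were 21.2 ± 3.13 and 11.9 ± 1.82 CPM, with a log2 fold change of -0.84 ± 0.16 (SE) and an interval from -1.18 to -0.50. In ACKR2-/- monocytes the mean level was lower by 51.8% for Crkl, 54.4% for Entpd7, 58.5% for Eml2 and 44.1% for Gsk3a. Calls here need an adjusted p below 0.05 together with a log2 fold change beyond 0.5 in size. By that rule 0.355% of the genes tested in monocytes were called lower and 0.913% higher. Since the genes were chosen on this comparison, nothing is read from their calls.

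**Figure D1:**
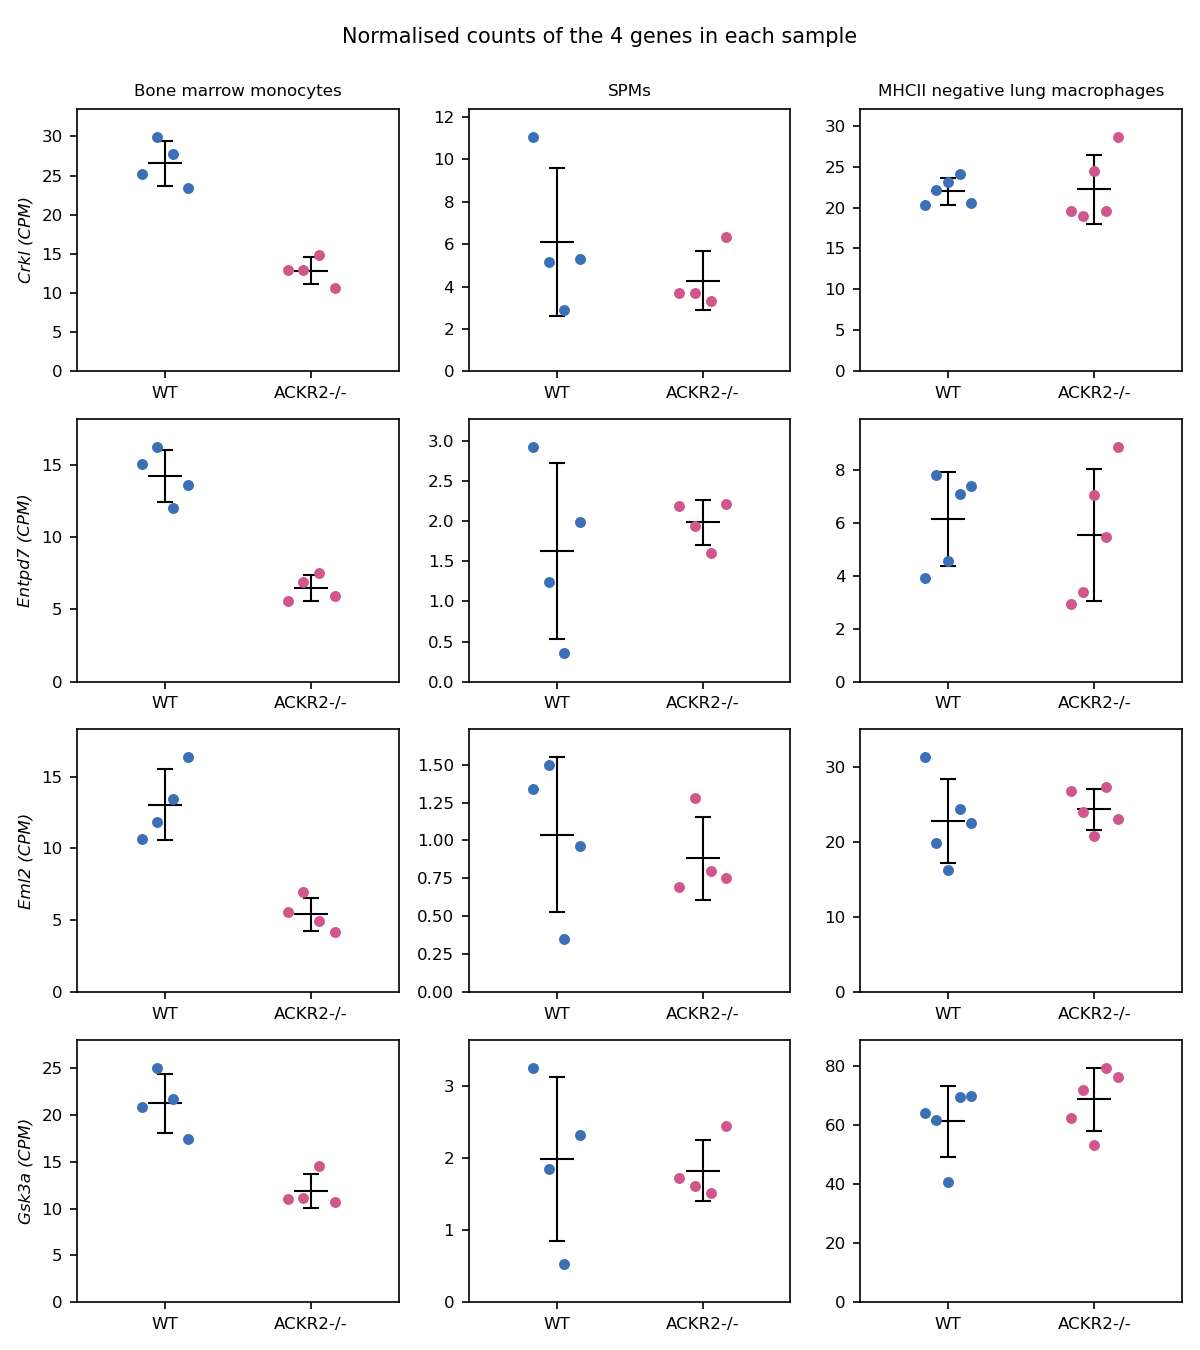
Normalised counts (CPM, y axes from 0, scaled to each panel) of Crkl, Entpd7, Eml2 and Gsk3a in WT and ACKR2-/- samples of the 3 cell types, with 1 point per sample and the mean ± SD in black. In monocytes all 4 ACKR2-/- points lie below all 4 WT points in each row, whereas the genotypes overlap in SPMs and in lung macrophages.

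SPMs are monocyte derived cells of the peritoneal cavity and gave samples that the choice of the genes did not use. None of the 4 genes was called there (edgeR's quasi-likelihood test, Benjamini-Hochberg adjusted), and 0 of 4 had an unadjusted p under 0.05. DESeq2 also called 0 of 4. Among all genes tested in SPMs 0.0154% were called lower and 0.0308% higher.

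Crkl was at 11.1, 5.16, 2.90 and 5.32 CPM in WT SPMs. It was at 3.72, 3.70, 3.30 and 6.33 CPM in ACKR2-/- SPMs. WT replicate 1 was the highest of the 8 samples and WT replicate 3 the lowest. The log2 fold change was -0.53 with an interval from -1.39 to 0.33 (adjusted p = 0.788, edgeR), and an exact two-sided permutation test of the means gave p = 0.4, where the smallest possible p is 0.029. Without WT replicate 1 the log2 fold change was -0.09.

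Entpd7 was at 2.923, 1.239, 0.352 and 1.995 CPM in WT SPMs. It was at 2.184, 1.943, 1.597 and 2.208 CPM in ACKR2-/- SPMs. All 4 ACKR2-/- samples lay within the range of the WT samples. Its log2 fold change was 0.25, with an interval from -0.78 to 1.27 (adjusted p = 0.913, edgeR), and the exact permutation p was 0.6. Without WT replicate 3, the sample with the fewest reads, it was -0.05, and without WT replicate 1 it was 0.63.

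Eml2 was at 1.342, 1.497, 0.352 and 0.961 CPM in WT SPMs. It was at 0.690, 1.28, 0.799 and 0.754 CPM in ACKR2-/- SPMs. Few reads stood behind these values, 87 over the WT group and 112 over the ACKR2-/- group. On the log2 scale the fold change was -0.27, with an interval from -1.21 to 0.68 (adjusted p = 0.896, edgeR), and the exact permutation p was 0.629. It was -0.52 without WT replicate 3 and -0.15 without WT replicate 1.

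Gsk3a was at 3.26, 1.86, 0.528 and 2.33 CPM in WT SPMs. It was at 1.72, 1.61, 1.52 and 2.45 CPM in ACKR2-/- SPMs. WT replicate 3 was again the lowest sample, as it was for each of the 4 genes, and WT replicate 1 the highest. The log2 fold change was -0.15, with an interval from -1.11 to 0.81 (adjusted p = 0.944, edgeR), and the exact permutation p was 0.8. It was 0.15 without WT replicate 1 and -0.43 without WT replicate 3. The coefficient of variation among WT SPM samples was 57% for Crkl, 67.2% for Entpd7, 49.1% for Eml2 and 57.1% for Gsk3a. Among WT monocyte samples it was 10.8% to 19%, where the choice favours genes with a small spread.

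In MHCII negative lung macrophages, where reads on these genes were more numerous, none of the 4 was called. Over all genes 0% were called by edgeR, while 290 genes had an unadjusted p under 0.05 and a lower level and 209 a higher level in ACKR2-/- samples, and DESeq2 called 4 lower and 16 higher. Of the 4 genes, 0 had an unadjusted p under 0.05 and DESeq2 called 0. All adjusted p were 0.9999 in edgeR's quasi-likelihood test.

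Crkl was at 20.3, 22.1, 23.1, 24.1 and 20.5 CPM in WT lung macrophages. It was at 19.5, 18.9, 24.5, 19.6 and 28.7 CPM in ACKR2-/- samples. Of the ACKR2-/- samples 3 were below and 2 were above every WT sample, so the spread was wider while the means lay together at 22.01 ± 1.64 and 22.24 ± 4.23 CPM (SD, n = 5 each). The log2 fold change was 0.01, with an interval from -0.35 to 0.38.

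Entpd7 was at 3.92, 7.82, 4.55, 7.09 and 7.40 CPM in WT lung macrophages. It was at 2.96, 3.40, 7.05, 5.47 and 8.88 CPM in ACKR2-/- samples. The lowest and the highest sample were both ACKR2-/-. Its log2 fold change was -0.15, with an interval from -0.94 to 0.64.

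Eml2 was at 31.3, 19.8, 16.3, 24.4 and 22.6 CPM in WT lung macrophages. It was at 26.8, 24.0, 20.8, 27.4 and 23.1 CPM in ACKR2-/- samples. The ACKR2-/- samples all lay inside the WT range. The log2 fold change was 0.09, with an interval from -0.33 to 0.51.

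Gsk3a was at 64.2, 61.9, 40.7, 69.6 and 69.8 CPM in WT lung macrophages. It was at 62.4, 72.0, 53.3, 79.2 and 76.4 CPM in ACKR2-/- samples. Of the ACKR2-/- samples 3 were above every WT sample. Its log2 fold change was 0.17, with an interval from -0.24 to 0.57. The gene 9130221H12Rik overlaps Gsk3a on the other strand and had 6462 reads over all lung samples. Gsk3a had 6834 and 8538 reads in the WT and ACKR2-/- groups, and reads in the overlap may belong to either gene. Over all monocyte samples 9130221H12Rik had 109 reads, and over all SPM samples 47. Whether overlap reads were counted alike for the cell types was not tested.

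The exact two-sided permutation tests of the lung means gave p = 0.913 for Crkl, 0.659 for Entpd7, 0.587 for Eml2 and 0.349 for Gsk3a, where the smallest possible p is 0.0079. Without the library labelled WT replicate 3 the log2 fold changes were 0.06 for Crkl, -0.22 for Entpd7, 0.02 for Eml2 and 0.07 for Gsk3a. Without the library labelled WT replicate 5 they were 0.02, -0.04, 0.12 and 0.25 in the same order. The difference in genotype effect between cell types was not tested, since the genes were chosen for a low value in monocytes.

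**Figure D2:**
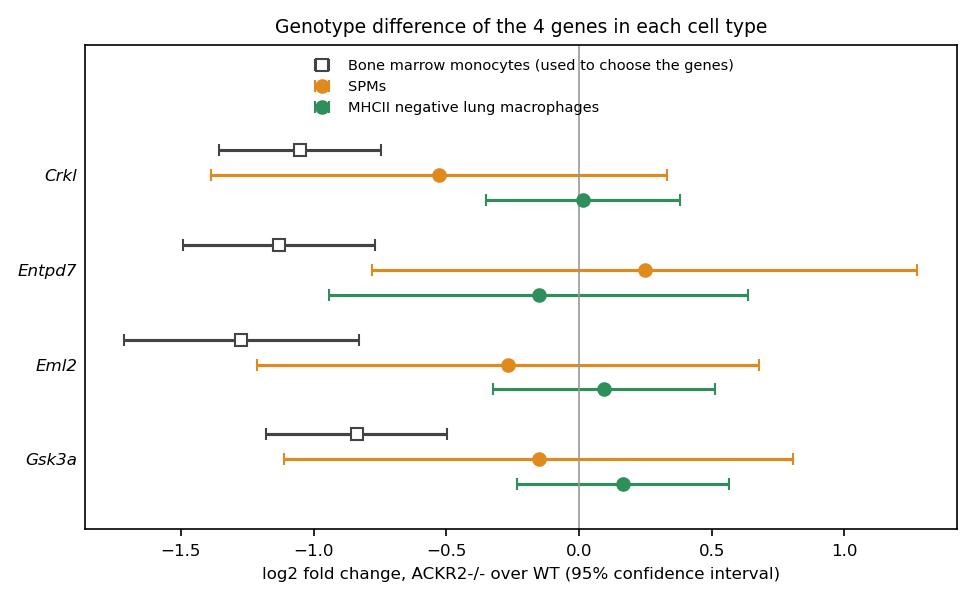
Log2 fold change of ACKR2-/- over WT (x axis) for each of the 4 genes (y axis) in monocytes, SPMs and lung macrophages, with 95% confidence intervals from edgeR. The open squares of monocytes lie between -1.27 and -0.84 and were used to choose the genes, the SPM intervals are the widest, and every lung interval includes 0.

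The levels of the 4 genes in WT cells did not follow 1 order across cell types. They were compared with edgeR in 1 model over the 26 samples. Each cell type came from its own count table and sequencing, so cell type and table cannot be told apart. The choice used WT monocytes and favours genes that are high there, so a test is given only for lung macrophages against SPMs. The monocyte samples still took part in the scaling and in the shared spread of the model. Its p-values are therefore not free of the samples on which the genes were chosen. Among WT samples the 4 genes varied less in monocytes than in SPMs, but the choice also favours genes with a small spread in monocytes. Against SPMs, lung macrophages were higher in Crkl by 0.68 on the log2 scale (adjusted p = 0.0173), in Eml2 by 3.25 (adjusted p = 2.54e-09) and in Gsk3a by 3.73 (adjusted p = 1.66e-10). Entpd7 missed the threshold, at 0.72 with an interval from -0.03 to 1.47 (adjusted p = 0.0865). Of the 17792 genes tested 62.3% were called in either direction here, and their median log2 fold change was 0.414, so the gain of Crkl stood at 0.68 against that shift.

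The values against WT monocytes are given as a description, with no test. WT SPMs stood below WT monocytes by a log2 fold change of -0.97 for Crkl, -1.94 for Entpd7, -2.45 for Eml2 and -2.21 for Gsk3a. WT lung macrophages stood at -0.29 against WT monocytes for Crkl and -1.22 for Entpd7, whereas Eml2 was at 0.80 and Gsk3a at 1.52. Over all genes 41.9% were called between SPMs and monocytes and 63.8% between lung macrophages and monocytes, with median log2 fold changes of 0 and 0.343, and nothing is read from the calls of the 4 genes in these contrasts. By these estimates the level of Crkl and Entpd7 was highest in monocytes, then in lung macrophages and then in SPMs. For Crkl the interval between lung macrophages and monocytes ran from -0.78 to 0.19, so the order of these 2 is not settled. The model of Crkl is also shorter in the monocyte table. Eml2 and Gsk3a ran from lung macrophages to monocytes to SPMs. Lung macrophages and SPMs are neighbours in the orders of Crkl and Entpd7, and they passed the test for Crkl and missed it for Entpd7.

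Per length of exon, levels can be set between genes. In WT monocytes the levels were 7.32 ± 1.08 RPKM for Gsk3a, 6.88 ± 0.742 RPKM for Crkl, 3.70 ± 0.701 RPKM for Eml2 and 1.59 ± 0.203 RPKM for Entpd7. Gsk3a and Crkl differed by less than their SD. In ACKR2-/- monocytes they were 4.09 ± 0.628, 3.32 ± 0.446, 1.53 ± 0.330 and 0.724 ± 0.0982 RPKM, in the same order. Among tested genes the RPKM of Crkl moved from percentile 61.3 to 46.7, that of Entpd7 from 32.2 to 16.7, that of Eml2 from 48.9 to 30.2 and that of Gsk3a from 62.4 to 51.2. In WT SPMs the highest of the 4 was Crkl, at 1.21 ± 0.691 RPKM, and the lowest was Entpd7, at 0.182 ± 0.122 RPKM. The lung table gives no gene lengths, and with the lengths of the SPM table Gsk3a was highest at 21.1 ± 4.14 RPKM and Entpd7 lowest at 0.687 ± 0.200 RPKM in WT lung macrophages.

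Crk is the closest relative of Crkl and shares its domains. It did not pass the genotype test in monocytes, at 53.1 ± 4.98 CPM in WT and 49.2 ± 6.10 CPM in ACKR2-/- samples (log2 fold change -0.11 ± 0.12 SE, adjusted p = 0.684, edgeR). Of the summed RPKM of Crkl and Crk, Crkl made up 38.1% ± 4.26 in WT and 24.3% ± 3.29 in ACKR2-/- monocytes. Its share was 17.8% ± 5.13 and 14.96% ± 3.51 in WT and ACKR2-/- SPMs and 12.96% ± 5.47 and 11.5% ± 2.81 in lung macrophages. The monocyte share rests on the shorter model of Crkl in that table and on the value that chose the gene.

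Gsk3b, the other GSK3 kinase, was at 20.5 ± 3.84 CPM in WT and 21.4 ± 3.38 CPM in ACKR2-/- monocytes (log2 fold change 0.06 ± 0.16 SE, adjusted p = 0.87, edgeR). Of the summed RPKM of both kinases, Gsk3a made up 77.7% ± 4.44 in WT and 65.1% ± 5.63 in ACKR2-/- monocytes. It made up 38.5% ± 12.9 and 44.8% ± 3.26 in SPMs and 84.1% ± 1.78 and 87.2% ± 4.73 in lung macrophages. Gsk3a thus held the larger share per length in both genotypes of monocytes and lung macrophages, and Gsk3b had the higher mean share in SPMs.

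**Figure D3:**
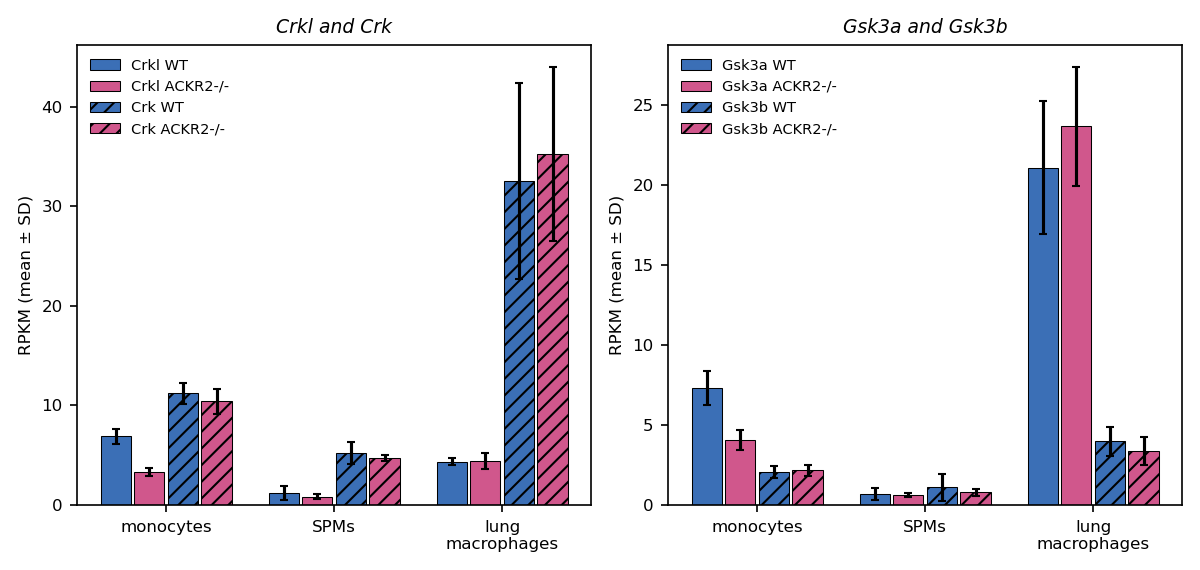
RPKM (y axes from 0, bars show the mean and error bars the SD of 4 samples, or 5 for lung macrophages) of Crkl beside Crk (left) and of Gsk3a beside Gsk3b (right), by cell type and genotype, with hatching for Crk and Gsk3b. In monocytes the Crk bars stand at 11.2 and 10.4 RPKM and the Gsk3b bars at 2.08 and 2.18 RPKM, while Crkl and Gsk3a are lower in ACKR2-/- samples.

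No relative of Entpd7 that was tested passed the test in any cell type. Entpd3, Entpd4 and Entpd8 were too low to be tested in any, and Entpd2 was tested only in lung macrophages. Entpd1, the surface ectonucleotidase CD39, was at 17.8 ± 2.69 CPM in WT and 13.7 ± 4.12 CPM in ACKR2-/- monocytes (log2 fold change -0.37, adjusted p = 0.378, edgeR). Entpd5, an enzyme of the endoplasmic reticulum, had a log2 fold change of -0.52 (adjusted p = 0.293) and Entpd6 of -0.10 (adjusted p = 0.754). Entpd4 had 0 CPM in every monocyte sample, and reads may be shared with near-identical copies in ways the table does not show.

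The relatives of Eml2 were not called either. In monocytes Eml3 had a log2 fold change of -0.12 (adjusted p = 0.661, edgeR), Eml4 of 0.07 (adjusted p = 0.778) and Eml6 of 0.22 (adjusted p = 0.694). Eml5 was at 1.14 ± 0.339 CPM in WT and 3.04 ± 2.11 CPM in ACKR2-/- monocytes, with a log2 fold change of 1.40 (adjusted p = 0.165). Eml1 was near 0 in monocytes and was not tested there.

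Crkl acts through a set of docking proteins, kinases and exchange factors, and 24 of a list of 25 such genes were tested in monocytes. This list and those below were drawn up with earlier results of these data known, so their calls in monocytes are a description. Besides Crkl, 2 of 23 fell and 0 rose, beside the 0.355% and 0.913% of all genes. Both encode proteins known from focal adhesions. Ptk2b, the kinase PYK2, was at 57.95 to 81.62 CPM in WT and 35.98 to 47.78 CPM in ACKR2-/- monocytes (log2 fold change -0.84, adjusted p = 0.011, edgeR). Pxn, the scaffold paxillin, was at 54.65 to 72.57 CPM in WT and 28.35 to 46.51 CPM in ACKR2-/- monocytes (log2 fold change -0.79, adjusted p = 0.0376). The groups did not overlap for either gene. The call of Ptk2b was lost in 2 and that of Pxn in 6 of 13 alternative settings, with adjusted p up to 0.0591 and 0.137. The median log2 fold change of the 23 was -0.07, beside 0.004 over all genes tested. Rapgef1, an exchange factor that binds Crkl, had the highest value of the list at 0.39 (adjusted p = 0.29). None of the list was called in SPMs or lung macrophages.

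**Figure D4:**
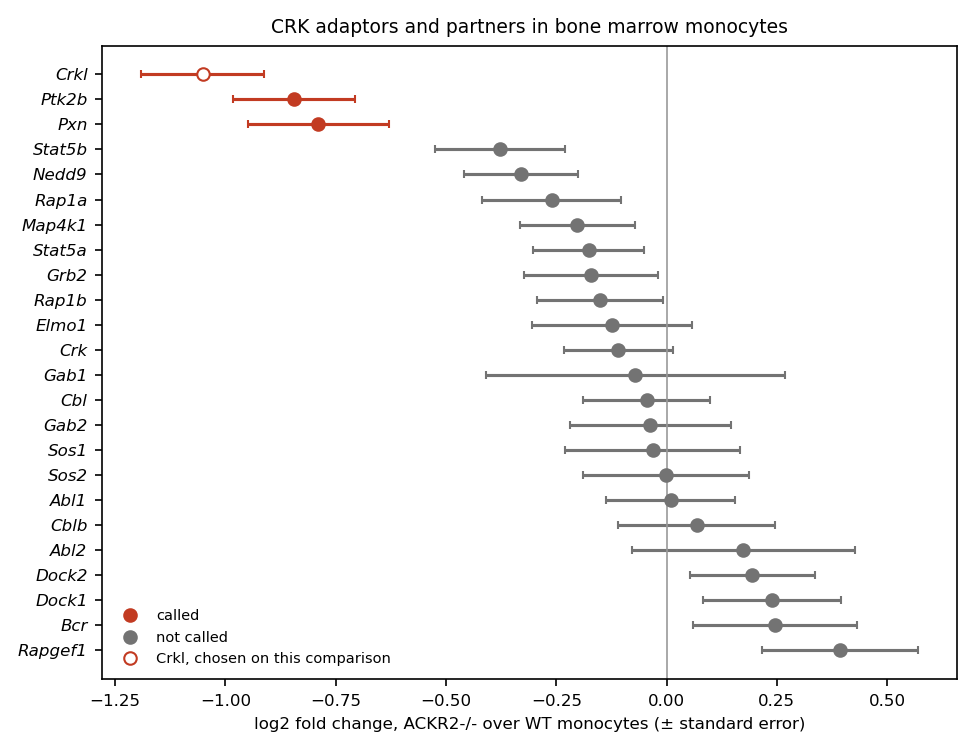
Log2 fold change of ACKR2-/- over WT monocytes (x axis, ± standard error) for the 24 tested genes of the list of CRK adaptors and partners (y axis, sorted by value). Ptk2b and Pxn, filled in red, were called lower, Crkl is open because it was chosen on this comparison, and the other 21 genes were not called.

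The list around Entpd7, with nucleotidases and receptors for nucleotides and adenosine, had 20 other genes tested in monocytes. None was called, 13 had a log2 fold change below 0 and the median was -0.19. The list of EML family and microtubule proteins had 24 others tested, 0 called, 12 below 0 and a median of -0.01. The list of GSK3 kinases, regulators and targets had 24 others tested, of which 0 fell and 1 rose, with a median of -0.09. The gene that rose was Lef1, a transcription factor of the Wnt pathway that T cells also express. It was at 0.202 ± 0.142 CPM in WT and 2.25 ± 0.514 CPM in ACKR2-/- monocytes (log2 fold change 3.41, adjusted p = 0.00647, edgeR), beside the T cell markers that rose in the same samples. No gene of the 3 lists was called in SPMs or lung macrophages.

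Eml2 and Gsk3a are both on chromosome 7, and Crkl and Entpd7 are on chromosomes 16 and 19. Calls within 500 kb of the 4 genes were counted in monocytes, where 0.355% of all tested genes were called lower and 0.913% higher. The counts are too small to set against these shares. Around Crkl 0 of 21 tested neighbours were called, around Entpd7 1 of 10, around Eml2 1 of 27 and around Gsk3a 0 of 29. Opa3, a mitochondrial protein gene 21.85 kb from Eml2, fell by 0.51 on the log2 scale (adjusted p = 0.0387, edgeR), a call that was lost in 10 of 13 alternative settings. Bloc1s2, a gene of lysosome biogenesis 405.6 kb from Entpd7, rose by 0.57 (adjusted p = 0.0387), a call lost in 8 of 13. Near Gsk3a, Tgfb1 and Hnrnpul1 were lower in ACKR2-/- monocytes and missed the threshold narrowly. Tgfb1, 449.2 kb away, had a log2 fold change of -0.81 (adjusted p = 0.0562, edgeR). Hnrnpul1, 483.3 kb away, was at -0.65 (adjusted p = 0.0543). Of the 29 neighbours of Gsk3a 16 were below 0, and the median was -0.03. The paper describes Tgfb1 as reduced in these monocytes. In SPMs and lung macrophages no neighbour was called.

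Over all 26 samples the log2 CPM of Eml2 and Gsk3a ran together, with a Pearson r of 0.969, which made Gsk3a the gene most like Eml2 among 17792. Crkl correlated with Eml2 at 0.805 and with Gsk3a at 0.799. Entpd7 was least like the others, with r of 0.664 to Crkl, 0.425 to Eml2 and 0.406 to Gsk3a. The genes most like Crkl were Dazap1 (0.898), Ppp2r5e (0.892) and Sbf1 (0.889). Those most like Entpd7 were Arid3a (0.866), Larp1 (0.834) and Hnrnpul1 (0.818). After Gsk3a, those most like Eml2 were Sf3a2 (0.963) and Txnrd1 (0.962), and those most like Gsk3a were Txnrd1 (0.985), Tnip1 (0.982) and Supt5 (0.98). Samples of a cell type share a table and a run, so these values also hold the differences between cell types and tables, and they carry no test.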

How the data were processed

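Each cell type has 1 table of read counts per gene, which the authors deposited raw, with no normalization. Libraries were made with SMARTer amplification and sequenced as 150 bp paired reads. The submitters' processing notes name mm10, HISAT2 2.0.5, featureCounts 1.5.0-p3 and DESeq2. Gene positions are those of the monocyte and SPM tables, on GRCm38. The lung table gives identifiers only, and its 5 summary lines (56.26% of its counts) were left out. No column was left unmapped. Of 44 replicate pairs 0 were identical, and the smallest chi-square per degree of freedom was 10.6.

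In R 4.3.3, each table was filtered by filterByExpr, scaled by TMM and tested by edgeR 4.0.16 (glmQLFit, glmQLFTest) with Benjamini-Hochberg adjustment over all tested genes. DESeq2 1.42.0, RLE factors, other filters, a replicate block and samples left out were alternatives. The scripts were tested on simulated data. WT cell types were compared in 1 fit of all samples, with p-values printed only for lung macrophages against SPMs. RPKM used the exon lengths of the tables. Intervals cover 95%. PCR copies cannot be told from molecules.

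The members and lists were chosen with earlier results of these data known. The named genes are the 4 members, their paralogs, called genes of the 4 pathway lists and of the 500 kb windows, the 3 genes most correlated with each member, and Ackr2. H2-Ab1, Tgfb1 and the called marker genes were named after their values were seen.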

Additional observations from a re-analysis of the deposited data

Results flagged for a closer look

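In 3 of 24 groups of values of the 4 genes, 1 sample stood far from the others, by a gap to the nearest sample over the group's whole range that exceeded Dixon's critical value. Chance gives about 1 such group in 20. Crkl in ACKR2-/- SPMs had replicate 4 at 6.328 CPM, with the next sample at 3.717 CPM. Gsk3a in ACKR2-/- monocytes had replicate 3 at 14.58 CPM, with the next at 11.16 CPM, and this sample set the narrow gap to the WT group. Gsk3a in WT lung macrophages had replicate 3 at 40.67 CPM, with the next at 61.85 CPM. That lung library was also the one with 21242 CPM of H2-Ab1, and the part of its make-up in the Gsk3a value was not tested.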

How the results depend on the processing

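The number of called genes changed with the tool, and in monocytes and SPMs also with the filter and the samples left out. In monocytes 168 genes were called, against 494 with DESeq2, 346 with no filter on low counts and 76 to 413 with 1 sample left out. In SPMs 6 were called, against 33 with DESeq2, 52 with no filter and 3 to 8 with 1 sample left out, and in lung macrophages 0 were called, against 20 with DESeq2.

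The alternative fits of WT cell types used all samples, monocytes included, and their values of lung macrophages against SPMs were kept here. Leaving out every comparison with a monocyte group, since the members were chosen on monocytes, there were 119 values of a member under an alternative. Of these 112 kept their direction and their side of the threshold and 7 changed sign, all 7 in the genotype comparisons of SPMs or lung macrophages, where no member was called. With the replicate block the log2 fold change of Gsk3a in SPMs was 0.01963 and that of Crkl in lung macrophages -0.002202. With 1 sample left out, Entpd7 in SPMs ranged from -0.04796 to 0.6289 and Gsk3a in SPMs from -0.435 to 0.1474. In lung macrophages Crkl ranged from -0.07717 to 0.06901 and Entpd7 from -0.3635 to 0.008973. The cause was not tested. As a description of the values that chose the genes, the monocyte log2 fold changes over 13 alternatives ran from -1.118 to -0.9731 for Crkl, from -1.207 to -1.053 for Entpd7, from -1.404 to -1.133 for Eml2 and from -0.9413 to -0.7432 for Gsk3a.

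Same-numbered samples of the genotypes did not deviate together in every pair (r from -0.118 to 0.307 in monocytes, -0.0918 to 0.0246 in SPMs and -0.0779 to 0.643 in lung macrophages, where replicate 1 had 0.643 to its own number against at most 0.526 to another), so the numbers were not taken to pair the samples, and with the replicate block 186 genes were called in monocytes. Settings for Pxn, Ptk2b, Lef1, Opa3 and Bloc1s2 were chosen after seeing the data. Eml2 in SPMs had no value under the filter at 1 CPM. Few reads stood behind Eml2 and Entpd7 in SPMs (87 and 143 over the WT samples), which limits the precision of their fold changes there.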
